A study of Homo sapiens with 8 samples.

Results

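LAMP1, LAMP2 and SCARB2 encode abundant glycoproteins of the lysosomal membrane, and were examined here in a RIP-chip experiment on miR-634. All probes of these 3 genes were taken, by gene name or by RefSeq accession. This gave 5 probes, of 58201 probes other than controls and of 22439 gene symbols on the array. LAMP1 had 1 probe (NM_005561) and SCARB2 had 1 (NM_001204255). LAMP2 had 3 probes, designed on the transcript variants A (NM_002294), B (NM_013995) and C (NM_001122606), and is described by probe. An accession names the transcript a probe was designed on, and does not show that the probe binds no other variant. A431 cells, a human cSCC cell line, were transfected with 10 nM miR-NC, the negative control, or 10 nM miR-634, and were lysed after 24 h. RNA bound to AGO2 was recovered with an anti-AGO2 antibody (RIP), and total RNA served as the input. There were thus 4 groups, an input and a RIP group for the cells given miR-NC and the same for those given miR-634, with 2 one-color Agilent arrays in each.

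The methods describe the input as total RNA, whereas the sample labels give normal rabbit IgG for the input arrays. They are called input here. A431 is 1 cell line, and the sources used here do not say whether the duplicates were separate transfections, so the p-values measure the spread between these arrays, which may be technical. All 8 arrays lay on 1 slide and were read in 1 scan, with row 1 holding every input array and row 2 every RIP array, so slide row and kind of RNA cannot be told apart. Columns 1 and 2 held the miR-NC arrays and columns 3 and 4 the miR-634 arrays, so slide column and transfected miRNA cannot be told apart either. The share of probes well above background was 45.6% to 45.8% on the input arrays, 40.0% on either RIP array of miR-634 cells, and lower, 33.6% and 34.5%, for RIP of miR-NC cells. The squamous keratinocyte markers were well above background on all input arrays in 10 of 10 genes, including KRT5, KRT14 and EGFR. Of the 7 fibroblast markers 1 (LUM) and of the 5 immune cell markers 1 (CD14) was so, and PTPRC was not.

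LAMP1 and LAMP2 are the major glycoproteins of the lysosomal limiting membrane, where their heavily glycosylated luminal domains line its inner face. The LAMP2 gene is spliced into variants that share the luminal part and differ in the last exon, which encodes the membrane span and the cytosolic tail and also sets the end of the transcript. LAMP2A is the receptor of chaperone-mediated autophagy, LAMP2B is the variant most tied to muscle and to fusion of autophagosomes with lysosomes, and LAMP2C has been linked to the uptake of nucleic acids by lysosomes. SCARB2, also called LIMP-2, carries the enzyme glucocerebrosidase to lysosomes. A miRNA loaded on AGO2 pairs through its seed, mostly with sites near the end of transcripts, and thereby holds those transcripts on AGO2 and lowers their stability or translation. LAMP2 was known to the study as a target of miR-634, and the comparison asks which transcripts gained AGO2 association when miR-634 was added.

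The mature miR-634 is shown because its seed is what all pairing by this miRNA starts from. It lies at chr17:66787132-66787153 on the plus strand (GRCh38.p14), within the bounds of the gene PRKCA, and has 22 bases. The sequence, from RefSeq, is given from its 5′ end with the seed, bases 2 to 8, in capitals.
hsa-miR-634: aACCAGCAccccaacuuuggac
A perfect match to this seed in a transcript reads UGCUGGU. Of 2370 mature human miRNAs in the table, hsa-miR-634 was the 1 with this seed. The transcript ends of LAMP1, LAMP2 and SCARB2 were not searched for it here.

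Levels are log2 intensities minus the 75th percentile of the array, taken over 16811 probes (28.9%), those well above background on every array. A level of 0 is therefore the brightness of that percentile, and levels are compared between arrays for 1 probe and never between probes. All 5 probes were among the 16811, and none was saturated. The enrichment is log2 RIP/input, the difference of the RIP and input levels, and the enrichment change is the enrichment in miR-634-overexpressing cells minus that in miR-NC-overexpressing cells. Adjusted p-values are from limma with Benjamini-Hochberg adjustment over the 16811 probes, and a probe was called when its adjusted p was under 0.05. Where an SD of log2 RIP/input is given, RIP and input arrays of the same number were paired. That SD thus depends on the numbering, and limma did not use this pairing.

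In the presence of miR-634 the LAMP2 probe for variant A moved apart from the probes for variants B and C, which were not separated from each other. The probe for variant B rose 2.78-fold in enrichment and the probe for variant C rose 2.05-fold, whereas the probe for variant A had a value of 0.871-fold and was not called. SCARB2 rose 1.53-fold, and LAMP1 fell to 0.727-fold. Of the 5 probes, 3 were thus called higher, against 24.9% of all probes, and 1 was called lower, against 43.5% of all probes. In either direction 4 of 5 were called, against 68.4% of all probes, and so being called was common on these arrays. The enrichment change had a median of -0.26 over all probes, and shifting every array by the spike-in probes instead moved that median to 0.82. The changes of LAMP1 and of LAMP2A, which were near the median, turned to 0.63 and 0.89 on the spike-in scale. Both were called higher there (limma adjusted p = 0.0398 and 0.00323). On that scale 97.2% of the calls were higher, compared with 36.4% here and 43.9% with the authors' processed values. Differences between probes on the same arrays do not move with such a shift.

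**Figure D1:**
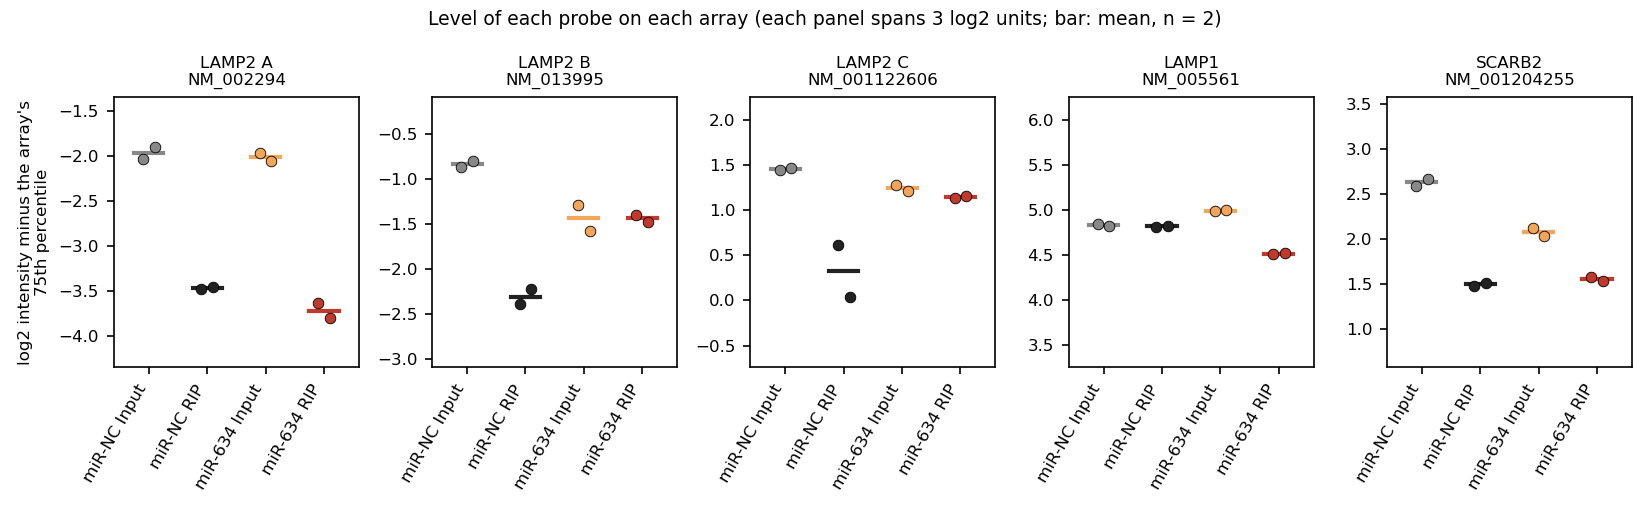
Log2 level of each probe (vertical axis: log2 intensity relative to the 75th percentile of the array, each panel spanning 3 log2 units) on each of the 8 arrays, by group; points are arrays and bars are the mean of n = 2. The miR-634 RIP arrays lie above the miR-NC RIP arrays for LAMP2B and LAMP2C and below them for LAMP2A and LAMP1.

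For LAMP2B, the unscaled intensity was 1593 and 1649 on the miR-NC input arrays and 136.2 and 143.7 on the RIP arrays of these cells. It was 1206 and 896.1 on the miR-634 input arrays and 523.0 and 478.6 on the miR-634 RIP arrays. On the miR-NC RIP arrays the uncorrected spot signal was low, at 192.5 and 209.0 over a local background of 49.0 and 48.0. The part of this low signal in the enrichment change was not tested. As levels, the miR-NC input lay at -0.87 and -0.80 and the miR-NC RIP at -2.39 and -2.22. With miR-634 the input was lower and the RIP was higher. These levels were -1.29 and -1.58 in the miR-634 input and -1.39 and -1.47 in the miR-634 RIP. The input fell by 0.60 (SE 0.11, limma adjusted p = 0.0142), and the RIP rose by 0.87 (SE 0.11, limma adjusted p = 0.000369). In these bulk arrays a lower input in every cell and a loss of the cells that had the transcript cannot be told apart. In miR-NC cells the log2 RIP/input was -1.47 ± 0.07 (SD, n = 2), and with miR-634 it was -0.0002 ± 0.15 (SD, n = 2). LAMP2B was thus called lower in RIP than in input without miR-634 (limma adjusted p = 3.05e-05) and was not called with it (limma adjusted p = 0.999). These ratios depend on the scaling, since the spike-in probes moved the median RIP/input of all probes to -2.58 in miR-NC cells and -1.59 with miR-634. On that scale LAMP2B in miR-634 cells was at -1.44 and LAMP2C at -1.54, and both were called lower. The enrichment change was 1.47 (SE 0.15, limma adjusted p = 0.000232), with 1.42 for replicate number 1 and 1.53 for replicate number 2. Its place among all probes was at percentile 92.8. The input fall was the less stable component, since it lost its call without either miR-NC input array or without the second miR-634 input array (limma adjusted p = 0.061 to 0.083).

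For LAMP2C, the brightest of the LAMP2 probes and so the one that stands for the gene when a single probe is used, the unscaled intensity was 7940 and 7969 on the miR-NC input arrays and 1090 and 687.6 on the RIP arrays of these cells. It was 7184 and 6205 on the miR-634 input arrays and 3025 and 2968 on the miR-634 RIP arrays. The 2 miR-NC RIP arrays stood further apart for this probe than any other pair of its duplicates, at levels of 0.61 and 0.04. The miR-634 RIP arrays, at 1.14 and 1.16, were above both. The input lay at 1.45 and 1.48 in miR-NC cells and, with miR-634, at 1.28 and 1.21, a change of -0.21 (SE 0.17, limma adjusted p = 0.431) that was not called. The RIP rose by 0.82 (SE 0.17, limma adjusted p = 0.00414). In miR-NC cells the log2 RIP/input was -1.14 ± 0.42 (SD, n = 2), and with miR-634 it was -0.10 ± 0.06 (SD, n = 2). LAMP2C, like LAMP2B, was called depleted on AGO2 in miR-NC cells (limma adjusted p = 0.000848) and was not called in miR-634 cells (limma adjusted p = 0.597), although the methods' t-test did not call it in miR-NC cells either (adjusted p = 0.0845). The enrichment change was 1.04 (SE 0.24, limma adjusted p = 0.00817), with a 95% interval of 0.46 to 1.61. It was 0.69 for replicate number 1 and 1.38 for replicate number 2. Without the second miR-NC RIP array the change was 0.75, and without the first it was 1.33, and it was called in both cases. The RIP rise was 0.54 without the second miR-NC RIP array and 1.11 without the first, and was likewise called. The methods' t-test called neither the enrichment change nor the RIP change of LAMP2C (adjusted p = 0.120 and 0.148).

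For LAMP2A, the probe for the receptor of chaperone-mediated autophagy, the unscaled intensity was 713.0 and 771.8 on the miR-NC input arrays and 64.21 and 61.12 on the RIP arrays of these cells. It was 754.4 and 643.6 on the miR-634 input arrays and 110.9 and 95.54 on the miR-634 RIP arrays. Its uncorrected spot signal on the miR-NC RIP arrays was 129.5 and 123.0 over a local background of 47.0 and 46.0, and the part of this low signal in its value was not tested. As levels, the input lay at -2.03 and -1.89 without miR-634 and at -1.97 and -2.05 with it, where the arrays overlapped. The input change was -0.05 (SE 0.08, limma adjusted p = 0.697). The RIP lay at -3.47 and -3.45 without miR-634 and at -3.63 and -3.80 with it, and fell by 0.25 (SE 0.08, limma adjusted p = 0.0240), which is near the median RIP change of all probes, -0.24. In miR-NC cells the log2 RIP/input was -1.50 ± 0.08 (SD, n = 2), and with miR-634 it was -1.70 ± 0.06 (SD, n = 2). LAMP2A was therefore called depleted on AGO2 in both kinds of cells (limma adjusted p = 7.93e-06 and 2.26e-06). The enrichment change was -0.20 (SE 0.11, limma adjusted p = 0.151), with a 95% interval of -0.47 to 0.07. With this scaling the interval leaves out a rise as large as that of either other LAMP2 probe. With spike-in scaling the change was 0.89 and was called higher (limma adjusted p = 0.00323), where the median of all probes was 0.82. Taken relative to the median probe it was 0.06, so its sign has no fixed direction. With 1 array left out it ran from -0.28, without the first miR-634 RIP array, to -0.12, without the second, and was never called. The RIP fall lost its call without either miR-NC RIP array or without the second miR-634 RIP array (limma adjusted p = 0.059 to 0.112).

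In miR-NC cells the 3 LAMP2 probes had nearby values of log2 RIP/input, from -1.50 to -1.14, and none of the 3 differences between them was called. Among the 16811 probes tested, LAMP2A lay at percentile 1.73 and LAMP2B at percentile 1.90 in these cells. Probes tested had to be well above background on the RIP arrays too, and a filter on the input arrays alone kept 23570. Probes bright in input but dim in RIP were thus left out of this ranking. In miR-634 cells LAMP2A stayed low, at percentile 4.16, whereas LAMP2B and LAMP2C lay at percentiles 55.4 and 51.9, close to the middle of the probes tested. In miR-NC cells 4 of the 5 probes were called lower in RIP than in input, LAMP1 being the exception with this scaling, where 77.5% of all probes were called, 36.3% higher and 41.2% lower. In miR-634 cells LAMP1, LAMP2A and SCARB2 were called lower and none higher, where 82.5% of all probes were called, 35.8% higher and 46.7% lower.

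The differences between the probes were tested within the arrays, over 3176 pairs of probes of the same gene and the 7 pairs that link different genes of the 3. The enrichment change of LAMP2B exceeded that of LAMP2A by 1.67 (SE 0.14, limma adjusted p = 0.000353). Of the pairs of probes of 1 gene, 3.94% differed by more than this in size. The enrichment change of LAMP2C exceeded that of LAMP2A by 1.24 (SE 0.26, limma adjusted p = 0.0173), and 6.96% of the pairs differed by more. Between LAMP2C and LAMP2B the difference was -0.44 (SE 0.32, limma adjusted p = 0.408), with a 95% interval of -1.20 to 0.33, which does not show that the 2 probes responded alike. Of the 3 LAMP2 pairs 2 were called, against 21.9% of all pairs of probes of 1 gene. Set against the mean of the other LAMP2 probes, LAMP2A differed by -1.45 (limma adjusted p = 0.000693), LAMP2B by 1.05 (limma adjusted p = 0.0132) and LAMP2C by 0.40 (limma adjusted p = 0.389).

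The larger part of both called differences lay in the RIP arrays. In the RIP change LAMP2A was below LAMP2B by 1.12 (SE 0.10, limma adjusted p = 0.000263), and LAMP2C was above LAMP2A by 1.07 (SE 0.19, limma adjusted p = 0.00554), where 31.4% of the pairs of probes of 1 gene were called. In the input change LAMP2A was above LAMP2B by 0.55 (SE 0.10), which just missed the threshold (limma adjusted p = 0.0523), where 1.45% of the pairs of probes of 1 gene were called. The difference between LAMP2C and LAMP2A did not hold in every setting. It lost its call when 1 of 4 arrays was left out, namely the first miR-NC input, either miR-634 input or the second miR-634 RIP array (limma adjusted p = 0.0558 to 0.0686). Across the arrays left out in turn its value ran from 0.94 to 1.53. Without the second miR-NC RIP array, the difference between LAMP2C and LAMP2B grew to -0.81 and was called (limma adjusted p = 0.0131).

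**Figure D2:**
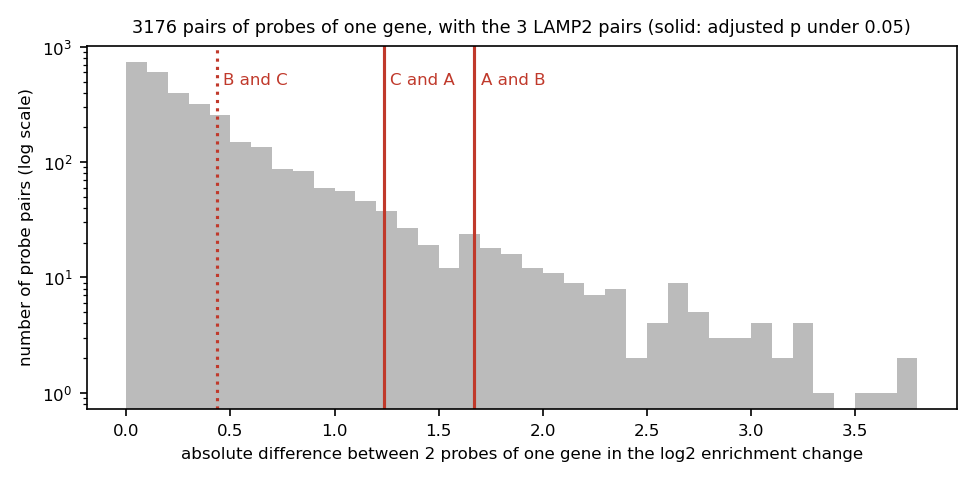
Histogram of the absolute difference between 2 probes of one gene in the log2 enrichment change (horizontal axis) over 3176 pairs, with the number of pairs on a log scale (vertical axis); vertical lines mark the 3 LAMP2 pairs, solid where the adjusted p was under 0.05. The pair of A and B, at 1.67, and the pair of C and A, at 1.24, lie in the sparse right part of the distribution, whereas the pair of B and C, at 0.44, lies among the common values.

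For SCARB2, the intensity was 17480 and 18280 on the miR-NC input arrays and 1989 and 1922 on the RIP arrays of these cells. It was 12880 and 10960 on the miR-634 input arrays and 4129 and 3864 on the miR-634 RIP arrays. The input fell from levels of 2.59 and 2.67 to levels of 2.13 and 2.04, by 0.55 (SE 0.06, limma adjusted p = 0.00283). This was among the larger input falls, at percentile 2.76 of all probes, and LAMP2B, at percentile 2.16, was next to it. SCARB2 and LAMP2B were the 2 of 5 probes called in the input, both lower, where 18.2% of all probes were called, 8.34% higher and 9.86% lower. The RIP level was 1.48 and 1.52 without miR-634 and 1.59 and 1.54 with it, a change of 0.06 (SE 0.06, limma adjusted p = 0.350). The log2 RIP/input was thus -1.13 ± 0.03 (SD, n = 2) in miR-NC cells and, with miR-634 added, -0.52 ± 0.03 (SD, n = 2), and was called lower than 0 in both. The enrichment change was 0.61 (SE 0.08, limma adjusted p = 0.000755), with 0.57 and 0.66 in the arrays of each number. With this scaling the lower input made up most of the enrichment change of SCARB2, whereas for LAMP2B and LAMP2C the higher RIP made up the larger part. Relative to the median probe, however, the RIP change of SCARB2 was 0.30 and was called (limma adjusted p = 0.0036). With spike-in scaling it was 0.93 and was called (limma adjusted p = 7.48e-06), and was then larger in size than the input change, -0.77.

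For LAMP1, the intensity was 83740 and 80950 on the miR-NC input arrays and 20090 and 18990 on the RIP arrays of these cells. It was 93540 and 85300 on the miR-634 input arrays and 31280 and 30610 on the miR-634 RIP arrays. The unscaled signal was thus higher in miR-634 cells in both kinds of RNA. The miR-634 RIP arrays were brighter as a whole, with a mean 75th percentile of 10.40 in log2 against 9.43 for miR-NC RIP. For the input it was 11.46 with miR-634 against 11.49 for miR-NC. Whether the unscaled rises are particular to LAMP1 was not tested, since the share of all probes with such rises was not counted. Its input level was 4.85 and 4.82 without miR-634 and 4.987 and 4.996 with it, and the change of 0.16 (SE 0.04) was not called (limma adjusted p = 0.0568). Its RIP level was 4.82 on both miR-NC RIP arrays and 4.51 and 4.53 on the miR-634 RIP arrays, and fell by 0.30 (SE 0.04, limma adjusted p = 0.000844). LAMP1 differed from the other 4 probes in miR-NC cells, where its log2 RIP/input was -0.01 ± 0.03 (SD, n = 2) and was not called. It was called lower there with normexp and quantile normalization (-0.21, limma adjusted p = 0.00756), with quantile normalization (-0.17, limma adjusted p = 0.0151) and with spike-in scaling (-2.54). In miR-634 cells the log2 RIP/input was -0.47 ± 0.01 (SD, n = 2). The enrichment change was -0.46 (SE 0.06, limma adjusted p = 0.000811), with -0.45 and -0.47 in the arrays of each number. It was 0.20 below the median probe, at percentile 37.9, and so a common value on these arrays.

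Of the 5 probes, 4 were called in the RIP change, where 76.0% of all probes were called. LAMP2B and LAMP2C rose, against 27.3% of all probes called higher, and LAMP1 and LAMP2A fell, against 48.7% called lower. The falls of LAMP1 and LAMP2A on the RIP arrays were not called relative to the median probe, at -0.07 and -0.02 (limma adjusted p = 0.213 and 0.875), or with the authors' processed values, at -0.13 and -0.08. The rises of LAMP2B and LAMP2C relative to the median probe were 1.11 and 1.06.

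**Figure D3:**
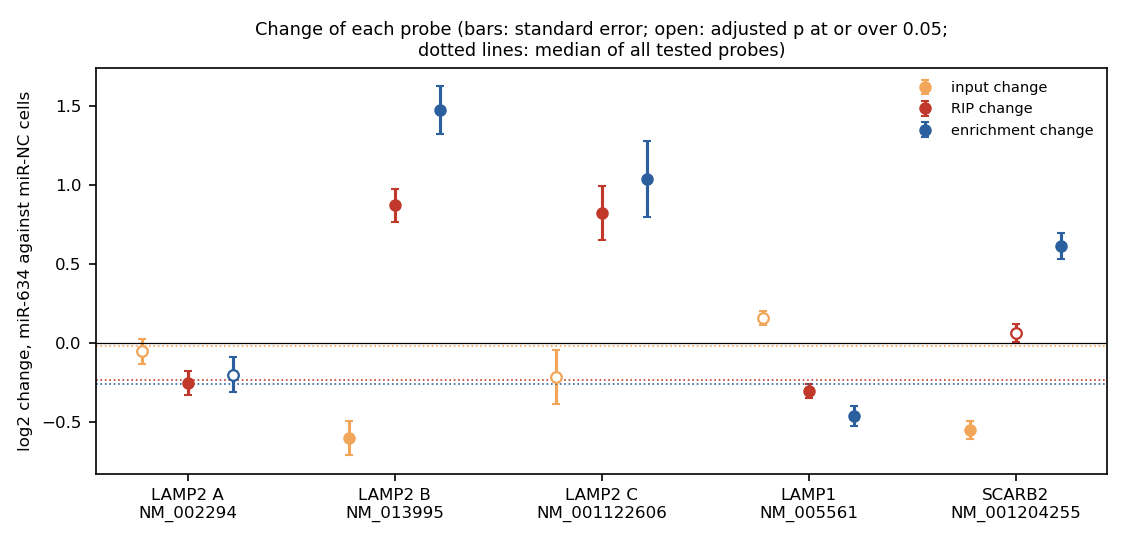
Log2 change of each probe between miR-634 and miR-NC cells (vertical axis) in the input, in the RIP and in the enrichment; bars are standard errors, open points have an adjusted p of 0.05 or more, and dotted lines are the medians of all tested probes. LAMP2B combines a lower input (-0.60) with a higher RIP (0.87), SCARB2 has a lower input (-0.55) with little change in the RIP (0.06), and LAMP2A lies near the medians.

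Across genes, the enrichment change of LAMP1 was below that of LAMP2B by 1.93 (SE 0.17, limma adjusted p = 0.000438), below that of LAMP2C by 1.50 (SE 0.25, limma adjusted p = 0.00641) and below that of SCARB2 by 1.07 (SE 0.11, limma adjusted p = 0.000814). LAMP1 and LAMP2A were not separated, with a difference of -0.26 and a 95% interval of -0.59 to 0.06 (limma adjusted p = 0.241). SCARB2 lay between the LAMP2 probes. It was below LAMP2B by 0.86 (SE 0.13, limma adjusted p = 0.00388) and above LAMP2A by 0.81 (SE 0.10, limma adjusted p = 0.00178). Its difference from LAMP2C, 0.42 with a 95% interval of -0.20 to 1.05, was not called (limma adjusted p = 0.321). In order, the enrichment changes thus ran LAMP2B, LAMP2C, SCARB2, LAMP2A and LAMP1, and of the neighbors in this order SCARB2 and LAMP2A were the pair called different. In all 7 of 10 pairs of the 5 probes were called, where 21.9% of pairs of probes of 1 gene and 68.4% of all single probes were called. Pairs that link other genes were not tested, so the share for such pairs is not known. The call of LAMP1 against LAMP2C was lost with no filter on dim probes (limma adjusted p = 0.0509), and that of LAMP2C against SCARB2 was gained without the first miR-NC RIP array, at 0.73 (limma adjusted p = 0.00511), whereas without the second it was 0.12 (limma adjusted p = 0.483).

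**Figure D4:**
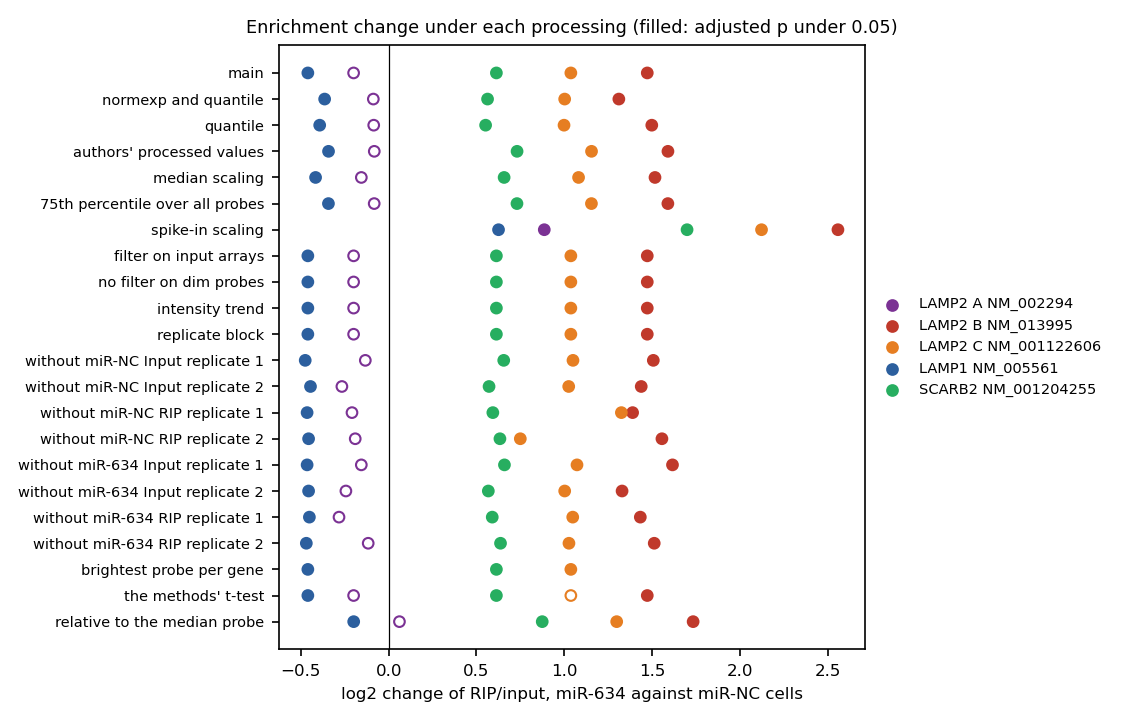
Log2 enrichment change of each probe (horizontal axis) under each processing, including each array left out in turn (vertical axis); filled points have an adjusted p under 0.05. LAMP2B, LAMP2C and SCARB2 lie above 0 throughout, whereas LAMP1 and LAMP2A lie above 0 with the spike-in scaling (0.63 and 0.89) and LAMP2A also relative to the median probe (0.06).

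Some genes followed the LAMP2 probes closely over the 8 arrays, by the root mean square difference of the log2 levels after each profile was centered on its mean. This is a description over 10959 genes, and all points share the same arrays. The profile nearest LAMP2B was PDSS2 (0.08), which makes the tail of coenzyme Q, followed by SNX19, a sorting nexin (0.11), and the kinase SLK (0.12), whereas the median over all genes was 0.64. Their enrichment changes were 1.31 for PDSS2, 1.87 for SNX19 and 1.51 for SLK, with inputs lower by 0.58, 0.78 and 0.51. The profile nearest LAMP2C was HMGXB4 (0.05), followed by SUCLG2, a subunit of succinyl-CoA ligase (0.10), and CHMP1B, a component of the ESCRT-III membrane scission machinery (0.10). The profiles nearest LAMP2A were YIPF4 (0.05), ENOPH1 (0.06), an enzyme of methionine salvage, and PLGRKT (0.07), with enrichment changes of -0.10, -0.14 and -0.04. Genes were picked by this distance, so the likeness of their changes to those of the probe follows from the choice. That LAMP2A and LAMP2B had different nearest genes follows likewise from the difference between the 2 probes.

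Around the 3 genes, each other gene was taken by its brightest probe, over 10962 measured genes, of which 27.8% were called higher and 42.4% lower in the enrichment change, with a median of -0.22. In the LAMP family, 3 of 5 genes were measured. LAMP3, the inducible family member also known as DC-LAMP, fell to 0.715-fold (-0.48, SE 0.11, limma adjusted p = 0.00735). LAMP2, taken by its probe for variant C, was thus the 1 family member called higher, and LAMP1 and LAMP3 were called lower. The probe for LAMP2A was not called (-0.20), and the methods' t-test did not call LAMP2C (adjusted p = 0.120). CD68 and LAMP5 were not measured. The lower calls of the family went from 2 to 1 with the authors' processed values, with the percentile over all probes or relative to the median probe, and with spike-in scaling all 3 were called higher.

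Among other lysosomal membrane proteins, 35 of 40 were measured, with a median of 0.24. Of these, 16 were called higher, 9 lower and 10 in neither direction, against 27.8% higher and 42.4% lower over all measured genes. CD63, a tetraspanin of late endosomes, lysosomes and exosomes, rose 10.24-fold in enrichment (3.36, SE 0.25, limma adjusted p = 6.13e-05), more than any of the 5 probes described above. Its input changed by -0.06 and its RIP by 3.29. MFSD1, a lysosomal transporter, rose by 2.82 (SE 0.24) and SLC15A4, a transporter of histidine and peptides, by 1.59 (SE 0.09). The largest called falls were those of SLC29A3, an equilibrative nucleoside transporter (-1.17, SE 0.09), of SLC66A1, an exporter of cationic amino acids (-0.86, SE 0.08), and of TMEM106B (-0.86, SE 0.10). In the input 4 of the 35 were called higher and 2 lower, against 9.73% and 10.6% of all measured genes. In the RIP change 18 were called higher and 8 lower, against 30.6% and 46.1% of all measured genes. The genes of lysosomal membrane proteins thus spanned both directions, and LAMP1 and SCARB2 were within their range of -1.17 to 3.36.

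Among genes of chaperone-mediated autophagy, 16 of 17 were measured, with 6 called higher, 5 lower and 5 in neither direction (median -0.06). Over all measured genes, 27.8% were called higher and 42.4% lower. HSPA8, the chaperone that delivers substrates to LAMP2A, rose by 1.45 (SE 0.09, limma adjusted p = 3.16e-05) with an input change of -0.09. RARA, a retinoic acid receptor whose signaling restrains this pathway, rose by 3.13 (SE 0.09, limma adjusted p = 1.80e-06), and its input fell by 0.60 (limma adjusted p = 0.00256). EEF1A1, a translation factor reported to act at the LAMP2A complex, rose by 2.40 (SE 0.07). EEF1A1 and HSPA8 have near-identical copies in the genome, and the probes may read these too. The largest called falls were those of the chaperone HSP90AA1 (-0.92, SE 0.07), the kinase AKT1 (-0.73, SE 0.09) and the Hsp70 cochaperone ST13 (-0.73, SE 0.08). The probe for the receptor itself, LAMP2A, was among the values near the median, as above.

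Among genes that sort lysosomal membrane proteins, 24 of 24 were measured, with 10 called higher, 5 lower and 9 in neither direction (median 0.18). The shares over all measured genes were 27.8% higher and 42.4% lower. AP3S2, a subunit of the AP-3 adaptor that routes LAMP1 and SCARB2 from endosomes, rose by 2.01 (SE 0.07, limma adjusted p = 3.52e-06), with an input fall of 0.44 (limma adjusted p = 0.00388). VPS29, a retromer subunit, rose by 1.32 (SE 0.07) and AP2M1, the medium subunit of the endocytic AP-2 adaptor, by 1.27 (SE 0.09). HGS, of the ESCRT-0 complex (-0.65, SE 0.08), GGA3, a clathrin adaptor (-0.54, SE 0.10), and VPS35, the retromer core subunit (-0.49, SE 0.07), had the largest called falls. The lower calls of this list went from 5 to 3 with the percentile over all probes and to 2 relative to the median probe.

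**Figure D5:**
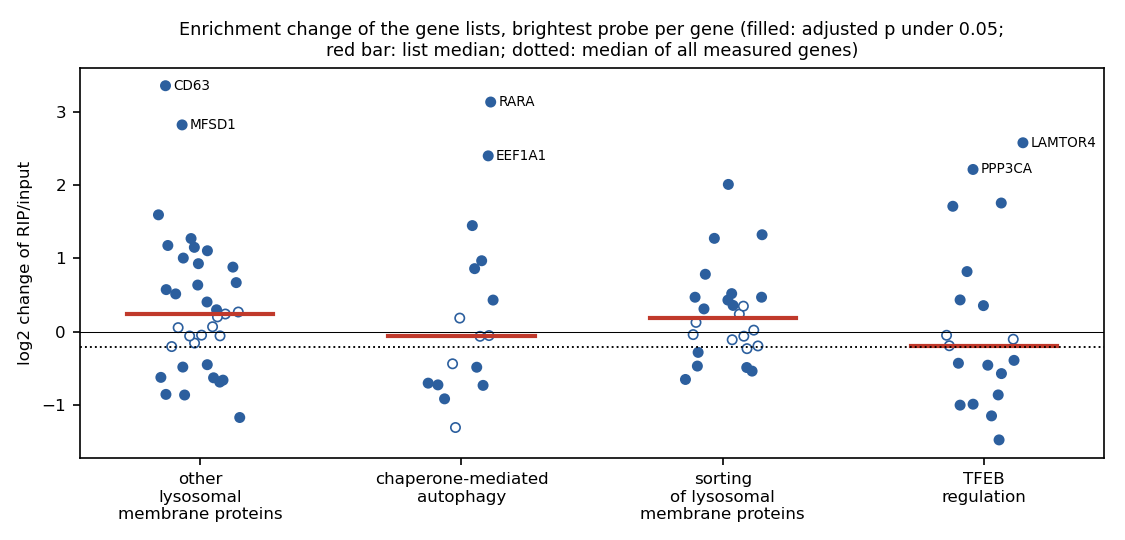
Log2 enrichment change of each measured gene (points, brightest probe; vertical axis) in 4 gene lists (horizontal axis); filled points have an adjusted p under 0.05, red bars are list medians and the dotted line is the median of all measured genes, -0.22. CD63 (3.36) and MFSD1 (2.82) stand above the other lysosomal membrane proteins and RARA (3.13) and EEF1A1 (2.40) above the other genes of chaperone-mediated autophagy, and each list spans both directions.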

How the data were processed

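The authors deposited, per array, the intensity of each spot from Agilent Feature Extraction (12.0.1.1 per the file headers, 9.1 per the labels), background-subtracted and not normalized between arrays. The authors also deposited processed log2 values from GeneSpring, which match log2 intensity relative to the all-probe 75th percentile with each probe's median removed, and served as an alternative. Here, spots of the same probe were averaged without control and outlier spots, and log2 intensities were shifted by the 75th percentile over the 16811 probes well above background on all 8 arrays. Of 33080 probes with a RefSeq accession, 31104 were named. The array was annotated on hg19, so no gene coordinates are given. The 4 group means were fitted with limma 3.58.1 (lmFit, eBayes) in R 4.3.3, and differences between probes were fitted likewise over 3183 pairs. Levels are means over 2 arrays, whose number limits the precision. On simulated data for the enrichment change of 16811 probes, 73.5% of 200 probes changed by 1 were recovered and 3.3% of calls were unchanged probes. Simulated probes varied independently, and the 200 were all raised, in the miR-634 RIP group alone. In the real data 68.4% of all probes were called, so the simulation does not give the share of false calls there. Members and lists were chosen with earlier results of these data known. Genes named beyond the members are the 3 largest called rises and falls of enrichment in each list and the 3 nearest profiles of each LAMP2 probe. Same-numbered arrays did not deviate together (r from -0.03 to 0.08). No slide block was fitted because there was 1 slide. Python 3.11.15, pandas 2.3.3 and matplotlib 3.10.9 were used.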

Additional observations from a re-analysis of the deposited data

How the results depend on the processing

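The alternatives in scaling were normexp (offset 50) with quantile normalization, quantile normalization, median scaling and spike-in scaling (7 spike-in probes). The percentile over all probes and the authors' processed values were also used. Those in the probes and arrays were a filter on the input arrays, no filter, leaving out each array and 1 brightest probe per gene. Those in the fit were a replicate block, an intensity trend, the per-probe t-test and diffSplice. The t-test used ratios per replicate number for the enrichment change and array levels for the other contrasts. Changes relative to the median probe were an alternative chosen after seeing the data. The enrichment changes of LAMP2B and SCARB2 and the difference between LAMP2A and LAMP2B kept their direction and call in all alternatives that were run. The number of arrays limits what can be resolved, and where a value below changed, the cause was not tested unless stated.

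With spike-in scaling the enrichment changes of LAMP1 and LAMP2A were 0.63 and 0.89, both called higher. The RIP changes of LAMP1, LAMP2A and SCARB2 were then 0.56, 0.62 and 0.93, all called higher, and the input change of LAMP1 was -0.063 and was not called. Relative to the median probe, the enrichment change of LAMP2A was 0.061, the RIP changes of LAMP1, LAMP2A and SCARB2 were -0.068, -0.015 and 0.30, and the input change of LAMP1, 0.17, was called. With the authors' values and with the percentile over all probes, the RIP change was -0.13 and -0.13 for LAMP1, -0.0775 and -0.0767 for LAMP2A and, now called, 0.24 and 0.24 for SCARB2, and the input change of LAMP2A was 0.0045 and 0.0058. The RIP change of LAMP2A lost its call at -0.093 (normexp and quantile), -0.13 (quantile), -0.20 (median scaling) and -0.25 (no filter and the per-probe t-test). The input change of LAMP1 was called at 0.22 (normexp and quantile), 0.24 (quantile), 0.16 (intensity trend) and 0.16 (brightest probe). The per-probe t-test did not call LAMP2C in the enrichment change (1.04), the RIP change (0.82) or the RIP/input in miR-NC cells (-1.14). Neither that t-test nor the fit without a filter called the input changes of LAMP2B (-0.60) and SCARB2 (-0.55). The difference between LAMP2C and LAMP2A lost its call at 1.08 with quantile normalization and at 1.24 without a filter.

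The log2 RIP/input near 0 changed sign: for LAMP1 in miR-NC cells it was 0.0355 with median scaling and 0.045 relative to the median probe, and it was called lower at -0.21 (normexp and quantile), -0.17 (quantile) and -2.54 (spike-in scaling). For LAMP2C in miR-634 cells it was 0.0069 with the authors' values, 0.0077 with the percentile over all probes and 0.049 relative to the median. For LAMP2B in miR-634 cells it was 0.061 (normexp and quantile), 0.088 (quantile), 0.11 (authors' values), 0.094 (median scaling), 0.11 (percentile over all probes) and 0.15 (median probe). With spike-in scaling both were called lower, at -1.54 for LAMP2C and -1.44 for LAMP2B.

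With each array left out in turn, the RIP change of LAMP2A ran from -0.33 to -0.17, with its call lost in 3 fits, its enrichment change from -0.28 to -0.12, the input changes of LAMP2A from -0.12 to 0.016, of LAMP2B from -0.75 to -0.46 and of LAMP2C from -0.25 to -0.18, the RIP/input of LAMP1 in miR-NC cells from -0.0295 to 0.0005 and of LAMP2B in miR-634 cells from -0.14 to 0.14, the difference between LAMP2C and LAMP2A from 0.94 to 1.53 and that between LAMP2C and LAMP2B from -0.81 to -0.064. The input change of LAMP2C was called at -0.21 without either miR-NC RIP array, since the spread between these 2 arrays then left the fit. A lone array was assumed to vary like the other groups. Input calls ran from 320 to 1583 higher and from 553 to 1897 lower, with the fewest in the fits without an input array.

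Calls over all probes, 4191 higher and 7311 lower in the enrichment change, 1402 and 1657 in the input and 4596 and 8182 in the RIP, moved as follows. Spike-in scaling gave 10747 and 311, 34 higher in the input, and 10695 and 672 in the RIP. Without a filter, which tested more probes, 25296 were lower in enrichment and 31070 in RIP, and the input gave 68 and 212. The brightest probe, with fewer probes tested, gave 4725 lower in enrichment and 5105 in RIP. The per-probe t-test gave 4329 and 4715 lower, and 40 and 72 in the input. Relative to the median 4651 were lower in enrichment. In the input, the filter on input arrays gave 660 and 964, the authors' values 806 lower and the percentile over all probes 794 lower. In the gene lists spike-in scaling gave 28, 11, 21 and 13 higher calls for other lysosomal membrane proteins, chaperone-mediated autophagy, sorting and TFEB regulation, and 0 lower calls in each.

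With the replicate number as a block, none of the calls above on the 5 probes or the LAMP2 pairs changed (LAMP2B 1.47, LAMP2C 1.04, LAMP2A -0.20, LAMP1 -0.46 and SCARB2 0.61 in the enrichment change), and 4168 probes were higher and 7317 lower.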

Other observations

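Regulators of TFEB, the transcription factor that drives lysosomal genes, were measured in 19 of 21 genes. In the enrichment change 7 were called higher and 9 lower, against 27.8% and 42.4% of all measured genes. The median was -0.19, against -0.22 over all measured genes. LAMTOR4, a subunit of the Ragulator complex that anchors mTORC1 signaling on the lysosome, rose by 2.58 (SE 0.08, limma adjusted p = 2.23e-06), and its input fell by 0.50 (limma adjusted p = 0.00329). PPP3CA, a catalytic subunit of calcineurin, rose by 2.21 (SE 0.11), whereas PPP3CB, another catalytic subunit of this phosphatase, fell by 1.15 (SE 0.13). FLCN rose by 1.76 (SE 0.38), whereas FNIP2, a partner of FLCN, fell by 1.48 (SE 0.15). For FNIP2 and PPP3CB the input rose by 1.04 and 0.58 (limma adjusted p = 0.00246 and 0.0104) while the RIP fell by 0.44 and 0.57. RRAGA, a Rag GTPase, fell by 1.003 (SE 0.08).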
